A study of Mus musculus with 6 samples.

Results

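Voltage-gated sodium channel subunits were examined in RNA-seq data of cardiomyocytes (CMs), the contractile cells of the heart. The 6 genes considered were listed by name as subunits found in the heart, at a time when earlier results of these data were known, and no measured value enters the rule. *Scn4a*, *Scn7a* and *Scn10a* encode pore-forming α-subunits, and *Scn2b*, *Scn3b* and *Scn4b* encode auxiliary β-subunits. Of these 6, 5 had a row among the 16448 genes of the deposited table, and *Scn2b* was not analysed here. Genes were tested where 3 or more samples reached a normalized count of 10, which 3 of the 5 did, namely *Scn4b*, *Scn4a* and *Scn7a*.

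The comparison was between 2 genotypes, with 3 samples each. Cpt1bcKO mice carried αMHC-Cre and floxed *Cpt1b* alleles (Cpt1b fl/fl), so that this gene of mitochondrial fatty acid import is deleted in CMs before birth. CtrlCre mice carried αMHC-Cre without the floxed gene, and all mice were on the C57BL/6 strain and 8 to 12 weeks old. αMHC-Cre is driven by the promoter of the cardiac myosin gene *Myh6*, so other heart cells in the preparation keep an intact *Cpt1b*. CMs were obtained from the ventricles after enzymatic perfusion of the heart and removal of the atria, and no sort of these cells before sequencing is given in the sources used here. Replicates are individual mice by the study's description of its experiments, although the sample labels only number them.

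A voltage-gated sodium channel consists of a large α-subunit that forms the pore and opens when the membrane depolarizes, together with small β-subunits, each with a single membrane span and an immunoglobulin-like domain outside the cell. In ventricular muscle the sodium current gives the upstroke of the action potential and sets the speed at which excitation spreads. β-subunits alter the gating and the surface level of the channel and act as cell adhesion molecules, those encoded by *Scn2b* and *Scn4b* being bound to the α-subunit by a disulfide bond and that encoded by *Scn3b* without a covalent bond.

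The deposited values are read counts divided by a size factor for each sample, here called normalized counts, and their sums ranged from 13393411 to 31722217. The mitochondrial ribosomal RNA gene *mt-Rnr2* took 64.6%, 64.4% and 63.2% of them in CtrlCre samples 1, 2 and 3 and 61.8%, 72.6% and 80.8% in Cpt1bcKO samples 1, 2 and 3, so Cpt1bcKO samples 2 and 3 stood apart. The sums of all but mitochondrial-encoded and rRNA genes ranged from 3146414 to 3551692. A single read was worth 0.682 to 1.29 normalized counts in 4 samples, the others giving no clear estimate, so values below 10 rest on a few reads. The targeted gene *Cpt1b* had 1861, 893 and 1443 normalized counts in the CtrlCre samples and 211, 353 and 285 in the Cpt1bcKO samples, which is a log2 fold change of −2.27 (limma, standard error 0.267, adjusted *P* = 0.00338). All 9 markers of CMs were tested and had lower values in Cpt1bcKO samples, with a median log2 fold change of −0.42, 0 with an adjusted and 2 with an unadjusted *P* below 0.05 (limma; 1.57% and 13.9% of all genes tested), and summed levels of 516616 to 621398 in CtrlCre and 327420 to 559126 in Cpt1bcKO samples. Their part in the differences of the sodium channel genes was not tested. Sample 1 of each group had high *Xist*, with 957 and 1080 normalized counts, against 23 to 78 in the other 4 samples, so sex was balanced between the groups but not uniform within them.

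*Scn4b* was higher in the CM preparations of Cpt1bcKO mice, and it was the only tested sodium channel gene of the set whose difference passed adjustment over all genes. *Scn7a* was higher in every Cpt1bcKO sample without passing the adjustment, *Scn4a* overlapped between the groups, and *Scn3b* and *Scn10a* were near the limit of detection. An adjusted *P* value below 0.05 (limma, Benjamini–Hochberg) was reached by 1 of the 3 tested members, against 1.57% of all 11364 genes tested and 0.66% for higher expression in Cpt1bcKO samples. Of the 3, 2 had an unadjusted *P* value below 0.05, beside 13.9% of all genes tested. The same 2, *Scn4b* and *Scn7a*, did not overlap between the groups, beside 18.7% of all genes in either direction and 9.13% with higher values in Cpt1bcKO. All log2 fold changes are Cpt1bcKO minus CtrlCre on the scale log2(normalized count + 1), on which changes of low genes are understated, and the median over all genes tested was −0.0013.

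**Figure D1:**
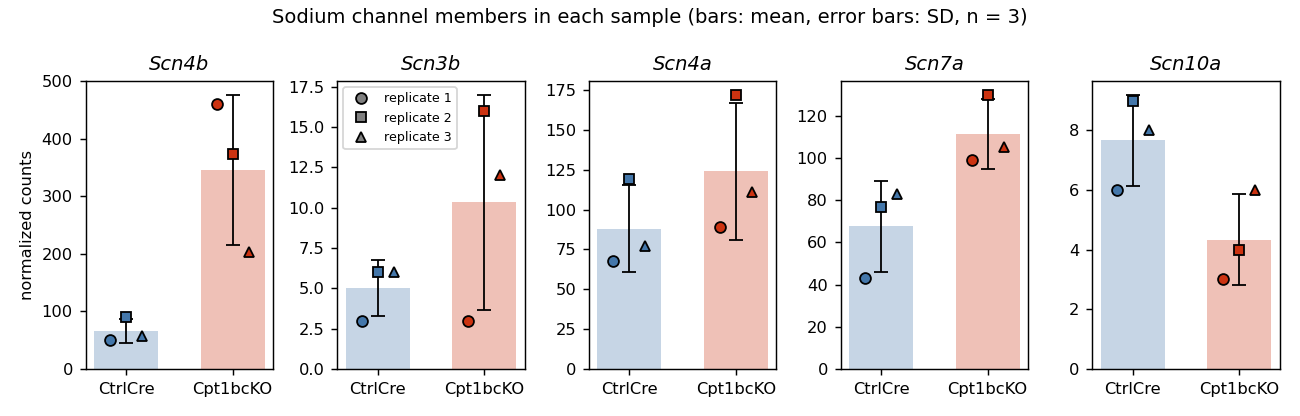
Normalized counts (vertical axes, each from 0 and each with its own scale) of the 5 sodium channel genes in the 3 CtrlCre and 3 Cpt1bcKO samples; points are samples, bars are means and error bars are SD. *Scn4b* lies at 204 to 461 in Cpt1bcKO against 51 to 90 in CtrlCre, *Scn7a* is separated by a narrower gap, and the other genes overlap.

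*Scn4b* encodes the β4-subunit, whose intracellular tail is known for blocking the open pore and giving rise to resurgent sodium current in neurons. The gene (ENSMUSG00000046480) lies on the plus strand of chromosome 9 from 45138395 to 45154152 (GRCm38). It had 51, 90 and 58 normalized counts in CtrlCre samples 1, 2 and 3 and 461, 373 and 204 in Cpt1bcKO samples 1, 2 and 3. Every Cpt1bcKO sample was above every CtrlCre sample, with 90 as the highest control and 204 as the lowest Cpt1bcKO value. The means were 66.3 ± 20.8 and 346 ± 131 (SD, n = 3 each). On the log2 scale the fold change was 2.33 (standard error 0.309, 95% confidence interval 1.64 to 3.02, limma adjusted *P* = 0.00585), which is 5.02-fold with an interval of 3.12 to 8.08. Among the 11364 genes tested, *Scn4b* ranked 28 by the size of the rise and 32 by *P* value. In relation to the mean, samples within a group varied by similar amounts, with a coefficient of variation of 31.3% in CtrlCre and 37.7% in Cpt1bcKO. The Cpt1bcKO values of *Scn4b* were in the reverse order of the share of *mt-Rnr2*, whose part in them was not tested.

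The call for *Scn4b* was lost without 1 of the 6 samples and under 1 other model of the variance. Without Cpt1bcKO sample 2 its log2 fold change was 2.24 with an adjusted *P* of 0.0527 (limma), and with 1 prior variance for all genes the adjusted *P* was 0.0698. Among samples 2 and 3 of each group, which leave out the samples with high *Xist*, its log2 fold change was 1.92 (adjusted *P* = 0.0169, limma). In bulk RNA, fewer cells of a type and less RNA per cell cannot be told apart, and this holds for each gene described here.

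**Figure D2:**
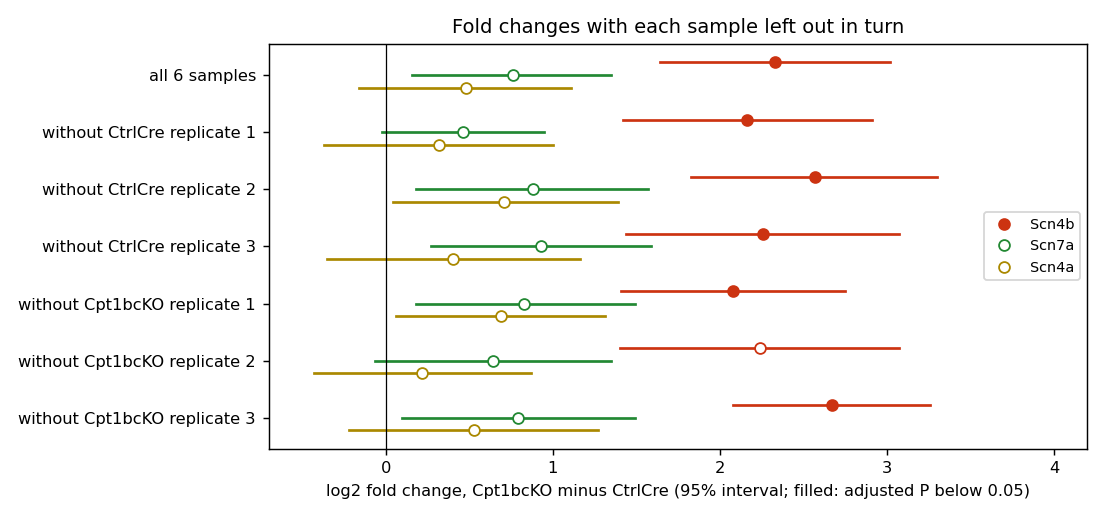
Log2 fold changes (horizontal axis, Cpt1bcKO minus CtrlCre, with 95% confidence intervals from limma) of *Scn4b*, *Scn7a* and *Scn4a* with all 6 samples and with each sample left out (rows); filled points have an adjusted *P* below 0.05. *Scn4b* stays between 2.08 and 2.67 in the rows with a sample left out and is unfilled only without Cpt1bcKO sample 2, whereas intervals of *Scn7a* and *Scn4a* reach 0 in some rows.

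Ratios between genes of the same sample do not depend on how samples were scaled. Per kb of exon, *Scn4b* and *Scn4a* were at nearly the same level in each control, with ratios of 1.06, 1.07 and 1.06 in CtrlCre samples 1, 2 and 3. In the Cpt1bcKO samples the ratios were 7.32, 3.06 and 2.60. The ratio of *Scn4b* to *Scn7a* was 1.75, 1.72 and 1.03 in CtrlCre and 6.86, 4.23 and 2.86 in Cpt1bcKO samples. Both ratios were higher in every Cpt1bcKO sample than in every CtrlCre sample. For each, the exact two-sided permutation test over samples gave *P* = 0.1, the smallest that 3 against 3 samples allow, and 0.15 after adjustment over the 3 ratios compared. For *Scn7a* over *Scn4a* the groups overlapped, with ratios of 0.607 to 1.03 in CtrlCre and 0.725 to 1.07 in Cpt1bcKO samples (exact permutation *P* = 0.3, also after adjustment).

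*Scn3b*, which encodes the β3-subunit, is the other β-subunit gene with values. The gene (ENSMUSG00000049281) lies on the plus strand of chromosome 9 from 40269217 to 40291618 and had 3, 6 and 6 normalized counts in CtrlCre and 3, 16 and 12 in Cpt1bcKO samples. Cpt1bcKO samples 2 and 3 were above all controls, and sample 1 equalled the lowest control. The difference of the mean log2 values was 0.72, and an exact permutation test over samples gave *P* = 0.4. That test cannot go below 0.1 with 3 against 3 samples, so it does not decide whether *Scn3b* differed. The values also rest on few reads. In the reference annotation 1 gene on the other strand overlaps *Scn3b*, and whether counting used strand is not given in the sources used here, so its few reads may be shared.

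*Scn4b* accounted for nearly all of the summed level per kb of *Scn3b* and *Scn4b*. Its share was 94.9%, 94.3% and 91.4% in CtrlCre and 99.4%, 96.2% and 94.9% in Cpt1bcKO samples. These shares touched at 94.9%, and the difference of the means of 3.33 percentage points (93.5% ± 1.88 against 96.9% ± 2.31, SD, n = 3 each) gave *P* = 0.2 in an exact permutation test. It was 2.05 without Cpt1bcKO sample 1 and 2.26 without CtrlCre sample 3.

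*Scn4a* encodes NaV1.4, the main sodium channel of skeletal muscle fibres. The gene (ENSMUSG00000001027) lies on the minus strand of chromosome 11 from 106318592 to 106349389 in the deposited table. It had 68, 119 and 77 normalized counts in CtrlCre and 89, 172 and 111 in Cpt1bcKO samples. CtrlCre sample 2 exceeded Cpt1bcKO samples 1 and 3, so the groups overlapped. Means were 88.0 ± 27.2 and 124 ± 43.0 (SD, n = 3 each), and limma gave a log2 fold change of 0.48 (95% interval −0.16 to 1.11, standard error 0.286) with an adjusted *P* of 0.495. The interval includes both no difference and a rise of 2.16-fold. Of 12 markers of skeletal muscle, 6 had a row and 4 of these were at 10 or less in every sample. The summed level of the 6 was 39 to 82 in CtrlCre and 48 to 56 in Cpt1bcKO samples. Only *Cacna1s* was tested, with 66, 31 and 60 normalized counts in CtrlCre and 35, 32 and 17 in Cpt1bcKO samples. Its log2 fold change was −0.87 (unadjusted *P* = 0.0399, adjusted *P* = 0.329, limma).

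*Scn7a* encodes NaX, an atypical member of the family that responds to the sodium concentration outside cells rather than to voltage and is known from glia and other non-neuronal cells. The gene (ENSMUSG00000034810) lies on the minus strand of chromosome 2 from 66673425 to 66784914. It had 43, 77 and 83 normalized counts in CtrlCre and 99, 130 and 105 in Cpt1bcKO samples. All Cpt1bcKO samples were above all controls, with 83 as the highest control and 99 as the lowest Cpt1bcKO value. The means were 67.7 ± 21.6 and 111 ± 16.4 (SD, n = 3 each). The log2 difference was 0.76 (95% interval 0.16 to 1.35, standard error 0.267), with an unadjusted *P* of 0.0173 and an adjusted *P* of 0.231 (limma). CtrlCre sample 1 lay lowest, and without it the log2 fold change was 0.46.

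Markers of some other heart cells differed along with *Scn7a*. Fibroblast markers summed to 482 to 735 normalized counts in CtrlCre and 1025 to 1241 in Cpt1bcKO samples. Of the 8 fibroblast markers 7 were tested, all 7 had higher values in Cpt1bcKO, 6 with an unadjusted *P* below 0.05 (13.9% of all genes tested, in either direction), and 2 passed adjustment (0.66% of all genes, in this direction), namely *Col1a1* with a log2 fold change of 1.32 and *Lum* with 1.46 (adjusted *P* = 0.0143 for each, limma). Endothelial markers were lowest in the same control sample as *Scn7a*, with sums of 1275, 2411 and 2638 in CtrlCre and 2582, 2630 and 2233 in Cpt1bcKO samples, and none of the 7 passed an unadjusted *P* of 0.05. Schwann cell and glia markers, of which 5 of 10 had a row and 3 of those were at 10 or less in every sample, summed to 22 to 52 and 38 to 51. Smooth muscle and pericyte markers summed to 3394 to 4692 and 2749 to 3072, a separation that rested on *Abcc9*, which is also expressed in CMs and had 2839, 2867 and 2839 normalized counts in CtrlCre and 1579, 1597 and 1739 in Cpt1bcKO samples. Without it the other 6 summed to 555 to 1853 in CtrlCre and 1010 to 1493 in Cpt1bcKO samples and overlapped, a sum chosen after seeing the data. Macrophage markers summed to 125 to 216 and 164 to 182. The part of these cells in the *Scn7a* and *Scn4b* values was not tested.

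**Figure D3:**
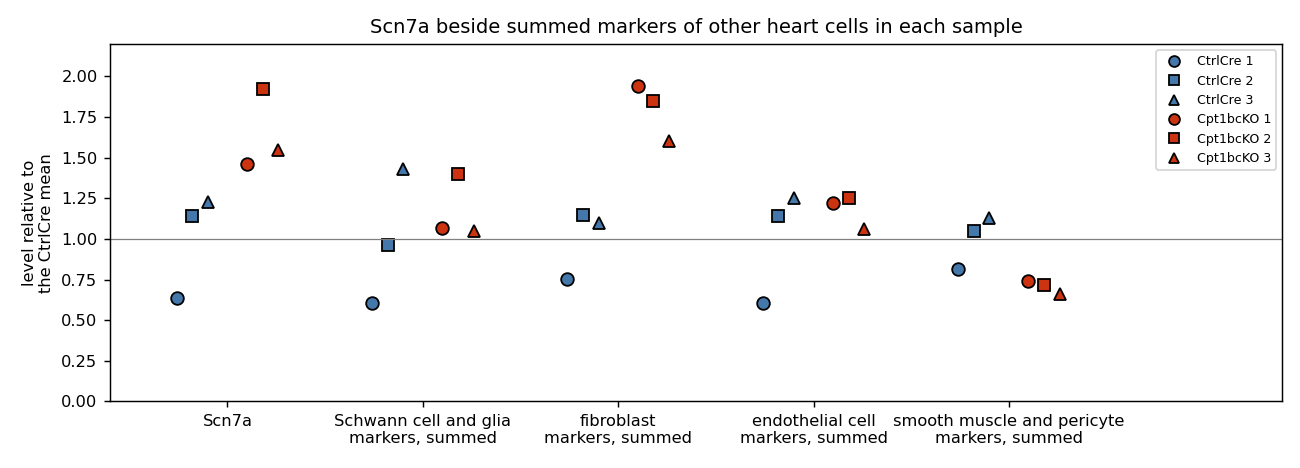
Level relative to the mean of the CtrlCre samples (vertical axis, linear) of *Scn7a* and of the summed markers of 4 groups of other heart cells in each sample; points are samples, blue for CtrlCre and red for Cpt1bcKO. CtrlCre sample 1 is lowest among controls in every column, at 0.635 for *Scn7a*, and fibroblast markers are higher in all Cpt1bcKO samples than in all controls, at up to 1.94, while the smooth muscle and pericyte column includes *Abcc9*, on which its separation rests.

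*Scn10a* encodes NaV1.8, the tetrodotoxin-resistant channel of sensory and intracardiac neurons. The gene (ENSMUSG00000034533) lies on the minus strand of chromosome 9 from 119608456 to 119719322. It had 6, 9 and 8 normalized counts in CtrlCre and 3, 4 and 6 in Cpt1bcKO samples. The highest Cpt1bcKO value equalled the lowest control. The difference of the mean log2 values was −0.72 and an exact permutation test gave *P* = 0.2. With 3 against 3 samples that test cannot go below 0.1, so it does not decide whether *Scn10a* differed. These values also rest on few reads. Of 10 neuron markers 3 had a row, and these summed to 21 to 43 in CtrlCre and 15 to 28 in Cpt1bcKO samples.

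Levels of the genes were compared with each other as normalized counts per kb of exon. In CtrlCre samples *Scn4b* had 13.3 ± 4.17, *Scn4a* 12.5 ± 3.87 and *Scn7a* 9.22 ± 2.94 normalized counts per kb (SD, n = 3), and the ranges of neighbours in this order overlapped. *Scn10a*, with 0.962 ± 0.192, and *Scn3b*, with 0.916 ± 0.317, were far below them and did not differ beyond their spread. In Cpt1bcKO samples *Scn4b* stood apart with 69.5 ± 26.2, followed by *Scn4a* with 17.6 ± 6.11 and *Scn7a* with 15.2 ± 2.24. *Scn3b* had 1.89 ± 1.22 and *Scn10a* 0.544 ± 0.192 in these samples. With these lengths *Scn4b* was the highest of the 5 genes in each of the 6 samples, whereas with the longest transcript in place of all exons *Scn4a* was slightly above it in CtrlCre samples 1 (10.3 against 10.2) and 3 (11.7 against 11.6). With all exons, the part of *Scn4b* in their summed level per kb was 37.8%, 37.9% and 32.3% in CtrlCre and 77.4%, 62.2% and 55.4% in Cpt1bcKO samples. Exon lengths are those of the GENCODE vM21 annotation, which may differ from the models used for counting, and in which *Scn4a* extends to 106353288.

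The neighbours of *Scn4b* on the chromosome were examined next. Within 250 kb of it the table held 8 genes, of which 4 were tested, 0 had an adjusted *P* below 0.05 and 1 an unadjusted *P* below 0.05 (limma), beside 1.57% and 13.9% of all genes tested, and a count of 0 among 4 is near that share. The gene with the unadjusted *P* below 0.05 was *Fxyd6*, which encodes a regulator of the sodium pump and lies 216 kb after *Scn4b*. It had 15, 23 and 31 normalized counts in CtrlCre and 35, 51 and 36 in Cpt1bcKO samples (log2 fold change 0.83, adjusted *P* = 0.287, limma). The nearest gene before *Scn4b*, *Mpzl3* at a distance of 61.0 kb, had 10, 14 and 4 normalized counts in CtrlCre and 12, 18 and 5 in Cpt1bcKO samples, and the nearest after it, *Il10ra* at 99.7 kb, had 2, 7 and 2 against 4, 7 and 4. Across all members with a row, 9 nearest neighbours were tested, 0 of them with an adjusted or an unadjusted *P* below 0.05.

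The genes most like each tested member were sought by Pearson's *r* over the 6 samples among the 6796 genes whose mean reached 50. These values describe patterns that share the difference between the groups, and carry no test. For *Scn4b* they were *Rusc2* (*r* = 0.9900), *Cnksr3* (0.9889) and *Acta1* (0.9877). *Acta1*, which encodes skeletal muscle α-actin, had 773, 1177 and 814 normalized counts in CtrlCre and 15185, 10270 and 7005 in Cpt1bcKO samples, the same order of samples as for *Scn4b* in each group. The genes for *Scn7a* were *Helz2* (0.9957), *Rps6ka2* (0.9909) and *Fam222b* (0.9861), and those for *Scn4a* were *Oplah* (0.9837), *Gna13* (0.9744) and *Ankrd52* (0.9739).

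The table held 3 further rows of the sodium channel family. Of these 2 were tested, with log2 fold changes from 0.000096 to 0.87, and 0 had an adjusted and 1 an unadjusted *P* below 0.05 (limma, smallest adjusted *P* 0.239), beside 1.57% and 13.9% of all genes tested. *Scn4b* was thus the only tested gene of the family to pass adjustment in all 6 samples.

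Genes for proteins that anchor, traffic or modify cardiac sodium channels included 1 that rose and 2 that fell. Of 36 listed, 32 were tested, 7 with higher and 25 with lower values in Cpt1bcKO, and these 3 had an adjusted *P* below 0.05 (limma), beside 1.57% of all genes tested, while 2 were higher and 12 lower at an unadjusted one, beside 13.9%. The median log2 fold change was −0.25, beside −0.0013 over all genes. *Sntb1*, which encodes a syntrophin that links membrane proteins to dystrophin, rose from 36, 38 and 34 to 138, 94 and 71 normalized counts (log2 fold change 1.41, adjusted *P* = 0.0269, limma). N-cadherin (*Cdh2*), of the intercalated disc, fell with a log2 fold change of −0.78 (adjusted *P* = 0.0237, limma), and telethonin (*Tcap*), a Z-disc protein, with −1.82 (adjusted *P* = 0.0354, limma). Those next in order did not pass adjustment (limma), with log2 fold changes of −0.55 for connexin 43 (*Gja1*), −0.67 for the deubiquitinase *Usp2*, 0.75 for the kinase *Sgk1* and −0.35 for the ubiquitin ligase *Nedd4*. No gene of the list passed without any 1 of the CtrlCre samples or without Cpt1bcKO sample 2, and 14 were below an unadjusted *P* of 0.05 with all samples.

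β-subunits are cut by β-secretase, α-secretases and γ-secretase. All 9 listed genes of these proteases were tested, 2 with higher and 7 with lower values and a median log2 fold change of −0.087, and 0 had an adjusted and 1 an unadjusted *P* below 0.05 (limma), beside 1.57% and 13.9% of all genes tested. *Bace2* was at 0, 10 and 13 normalized counts in CtrlCre and 26, 37 and 28 in Cpt1bcKO samples, which did not overlap, as for 9.13% of all genes in this direction (adjusted *P* = 0.208, limma). Its fitted log2 fold change of 2.53 rests in part on the control at 0. *Psenen*, *Adam10* and *Adam17* had log2 fold changes of −0.61, −0.21 and 0.20, none of which passed an unadjusted *P* of 0.05. *Bace1*, the β-secretase known to cut the *Scn4b* product and named here after its value was seen, had a log2 fold change of −0.025.

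Genes of sodium pumps, exchangers and cotransporters were examined in a list that also holds some carriers of other ions, among them the potassium–chloride cotransporter gene *Slc12a4* and the anion exchanger gene *Slc4a3*. Of 21 listed, 16 were tested, 11 with higher and 5 with lower values and a median log2 fold change of 0.12. An adjusted *P* below 0.05 was reached by 0 of them (limma), beside 1.57% of all genes tested. At an unadjusted *P* below 0.05, 5 were higher and 3 lower (limma), beside 13.9% of all genes tested. *Slc12a4* (log2 fold change 0.72), the sodium–phosphate cotransporter gene *Slc20a1* (1.18) and the sodium–potassium–chloride cotransporter gene *Slc12a2* (0.52) had higher values in all Cpt1bcKO samples. Phospholemman (*Fxyd1*), an inhibitor of the sodium pump, had lower values in all of them (−0.52). Adjusted *P* values of these 4 were 0.158 to 0.195 (limma). They were named for having the lowest *P* values of the list, and 18.7% of all genes tested did not overlap between the groups.

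Transcription factors and other regulators of transcription known from cardiac conduction and ion channel expression were also examined. The list includes the histone deacetylase gene *Hdac2* and is called conduction transcription factors below. Of 30 listed and tested, 9 had higher and 21 lower values, and the median was −0.31 on the log2 scale. An adjusted *P* below 0.05 was reached by 0 genes and an unadjusted one by 14, of which 1 was higher and 13 lower (limma), beside 1.57% and 13.9% of all genes tested. *Hopx* (−0.83), *Myocd* (−0.67), *Irx3* (−1.45) and *Tbx5* (−0.79), the last a regulator of the conduction system, had the lowest *P* values, with adjusted values of 0.0692 to 0.0921 (limma). Without Cpt1bcKO sample 1, 2 genes of this list passed adjustment.

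Markers of the conduction system, in which *Scn4b* is known to be high, and of the atria were summed as well. Conduction markers, of which 7 of 10 had a row, summed to 256 to 288 normalized counts in CtrlCre and 119 to 137 in Cpt1bcKO samples. Of 6 tested, 5 had lower values in Cpt1bcKO samples. Atrial markers, of which 4 of 6 had a row, summed to 214 to 380 and 538 to 800, a separation that rested on *Nppa*, since the other 3 summed to 65 to 236 and 117 to 154 and overlapped. Natriuretic peptide A (*Nppa*), also a gene of ventricular stress, rose (1.87, adjusted *P* = 0.00917, limma), whereas the atrial light chain genes *Myl7* and *Myl4* had 2 to 19 and 16 to 102 normalized counts in CtrlCre against 7 to 10 and 30 to 83 in Cpt1bcKO samples. The part of these cells in the *Scn4b* values was not tested.

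**Figure D4:**
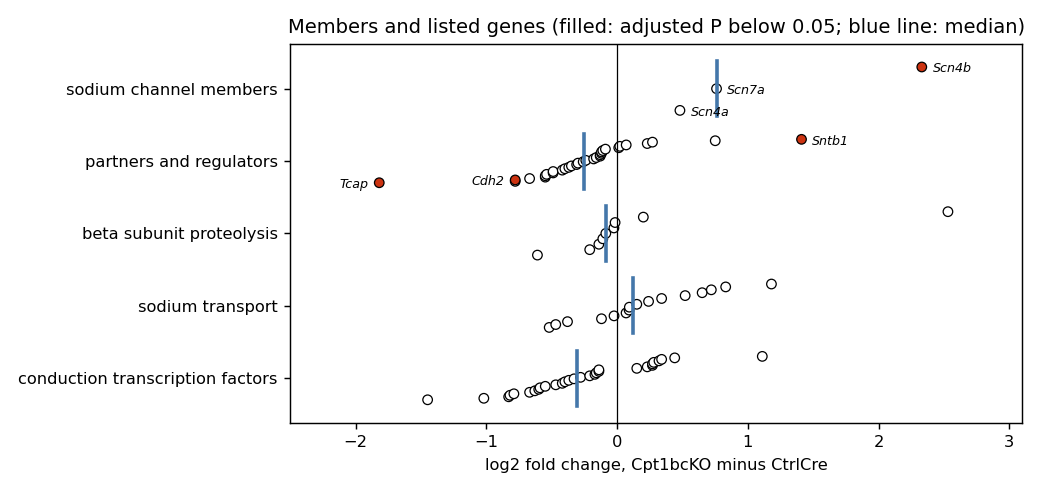
Log2 fold change (horizontal axis, Cpt1bcKO minus CtrlCre) of the tested sodium channel members and of the tested genes of 4 lists (rows); each point is 1 gene, filled where the adjusted *P* is below 0.05 (limma), and blue lines are medians. *Scn4b* at 2.33 is the filled point of the members, and 3 genes of the partner list, *Sntb1*, *Cdh2* and *Tcap*, are filled.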

How the data were processed

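RNA-seq of CMs in 3 CtrlCre and 3 Cpt1bcKO samples was used. The authors aligned reads with STAR (version 2.5.4b per the submitters' processing notes) to mouse genome GRCm38.p5, counted them on genes with featureCounts (1.6.0), without reads that fell on more than 1 gene or region, and scaled counts by DESeq2 (1.14.1) size factors. The deposited values (signal) are the authors' normalized counts after rounding to whole numbers, so count models were not used. Columns of the authors' own comparison (means, fold changes and *P* values) were not used.

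Values were transformed to log2(value + 1). Genes that reached 10 in 3 or more samples were tested with limma (3.58.1 in R 4.3.3; lmFit, eBayes with trend, both groups, no covariate), with Benjamini–Hochberg adjustment across every gene tested. Single values were compared with exact two-sided permutation tests. Steps were tested on simulated data. Python 3.11.15 was used for tables and plots, with pandas 2.3.3 and matplotlib 3.10.9.

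Members, lists and markers were chosen with earlier results of these data known. Named were the members, *Cpt1b*, neighbouring genes, in each list the genes called and up to 4 with the lowest *P* values, and the 3 genes most like each tested member. The planned share of *Scn4b* among 3 β-subunit genes was computed over *Scn3b* and *Scn4b*. Some genes under this rule, among them the 3 further rows of the family, are not reported by name here. Alternatives were other scalings, filters, pseudocounts (0.5 and 5) and prior variances, a block for the replicate number, and leaving out each sample. Depth limits low values: 10 normalized counts rest on roughly as many reads.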

Additional observations from a re-analysis of the deposited data

How the results depend on the processing

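The log2 fold change of *Scn4b* had the same sign under all 17 alternatives (1.92 to 2.67) and stayed past the threshold under 15 (limma adjusted *P*). It was 2.33 with an adjusted *P* of 0.0698 with 1 prior variance for all genes, and between 2.08 and 2.67 with each sample left out, with the adjusted *P* above the threshold only without Cpt1bcKO sample 2 (0.0527). *Scn4a* (0.22 to 0.71) and *Scn7a* (0.46 to 0.93) kept their sign and did not pass under any of the 17, and the signs of *Scn3b* (0.31 to 1.36) and *Scn10a* (−0.94 to −0.45) were kept under all 13 that gave a value. Scaling to the sum of all but mitochondrial-encoded and rRNA genes shifted the median of all genes to 0.11. Genes called numbered 178, 41 with 1 prior variance, and 42 to 329 with each sample left out. In the fit with the replicate number as a block, 603 genes were called, 5 partners and regulators, 2 sodium transport genes and 5 conduction transcription factors, and the adjusted *P* was 0.000743 for *Scn4b*, 0.0669 for *Scn7a* and 0.136 for *Scn4a* (limma). Same-numbered samples correlated at 0.376, 0.255 and 0.0684 across genes, and differently numbered ones at −0.329 to 0.147. These values do not settle whether the numbers mark pairs, and the main fit did not take them as pairs. With each sample left out, 0 to 4 partners and regulators and 0 to 2 conduction transcription factors were called. At an unadjusted *P* below 0.05 the lists held 14 partners and regulators, 1 protease gene, 8 sodium transport genes, 14 conduction transcription factors and 1 further gene of the family. The difference in the share of *Scn4b* was 2.05 to 4.31 percentage points with each sample left out. The subset of samples 2 and 3, the sums without *Abcc9* or *Nppa* and the order by longest transcript were chosen after seeing the data. No alternative could be run for *Scn2b*. The low values of *Scn3b* and *Scn10a* limit what can be said of them at this depth.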
